A study of Homo sapiens with 6 samples.

Results

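The GADD45 family comprises 3 genes, GADD45A, GADD45B and GADD45G, which encode small acidic stress proteins. They were taken by name from the 35474 genes listed for the libraries, and all 3 were among the 20776 genes with enough counts to be tested. The family was picked with the difference between siBAP18 and siCtrl already known, so that difference is given for the 3 genes as a description, with its standard error (SE) and without a test. The cells were A549, an established human lung adenocarcinoma line. In 3 libraries (siBAP18) they had received siRNA against BAP18, a chromatin protein that binds BPTF and is encoded by C17orf49. In the other 3 libraries (siCtrl) they had received a control siRNA without a target in the cell. RNA was collected 48 h after transfection in both groups, and poly(A) RNA was sequenced as 150-base read pairs. Which of the study's BAP18 siRNA duplexes was used is not given, so effects of a duplex and of the loss of BAP18 cannot be told apart. In bulk RNA a change in the number of expressing cells and a change in RNA per cell cannot be told apart either.

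GADD45 proteins have no enzyme activity of their own and act by binding other proteins. Known partners are the kinase MAP3K4 at the head of the p38 and JNK cascades, the CDK1 and cyclin B1 complex of the G2/M transition, the replication clamp PCNA and the CDK inhibitor p21. GADD45A is a classical DNA damage response gene, GADD45B is known as a target of NF-kappaB and TGF-beta signaling, and GADD45G was described as a cytokine response gene whose promoter is often methylated in tumors.

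The counts per library summed to between 42094524 and 56548620. A gene with 0 counts could hold up to 3 counts, a floor that covers counting error only. C17orf49 was lower in all siBAP18 libraries, at 0.846, 0.922 and 0.976 RPKM (reads per kilobase of gene length, scaled to library depth) against 5.27, 6.21 and 5.70 RPKM in siCtrl, a log2 fold change of -2.65 (SE 0.11). Epithelial and lung markers summed to 4270 to 4557 RPKM in siCtrl and 3572 to 4143 RPKM in siBAP18. By the edgeR quasi-likelihood F test (adjusted p under 0.05) 4 of the 6 tested were lower and 1 was higher, 83.3% called against 49.6% of all genes. Log2 fold changes were -1.32 for CDH1, -0.41 for EPCAM, -0.37 for KRT8, -0.24 for KRT18 and 0.43 for KRT7. KRT18 lost its call under limma without the filter on low values (adjusted p = 0.0864). By the edgeR test KRT18 also lost it without siCtrl replicate 1 (adjusted p = 0.0523) or 3 (0.0584). The lung markers NKX2-1, SFTPB and SFTPC had between 0 and 8 counts in every library. NAPSA, another lung marker, had 25 to 48 counts in siCtrl and 41 to 67 in siBAP18. It was not called (0.54, adjusted p = 0.0922 by the edgeR test). Markers of immune, stromal and endothelial cells, of which 6 of 8 were listed, summed to 30.1 to 32.3 RPKM in siCtrl and 55.1 to 70.6 RPKM in siBAP18. CD68, which epithelial lines also express, had the most counts in that list and was the 1 of its 3 tested genes that was higher in siBAP18, at a log2 fold change of 1.04. COL1A1 (-0.38, adjusted p = 0.00124) and PECAM1 (-1.53, adjusted p = 0.00123) were lower by the edgeR quasi-likelihood F test, and COL1A2, PDGFRB and VWF had between 0 and 8 counts. The call of COL1A1 was lost under limma without the filter on low values (adjusted p = 0.0897). The mitochondrial share of counts was 6.87% to 7.43% in siCtrl and 5.28% to 6.14% in siBAP18. The part of these shifts in the results was not tested.

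The 3 genes are compact and alike in structure, each with 4 exons in its principal transcript on the plus strand of GRCh38. GADD45A (ENSG00000116717.12) lies at chr1:67685061-67688338, GADD45B (ENSG00000099860.8) at chr19:2476122-2478259 and GADD45G (ENSG00000130222.10) at chr9:89605013-89606555. Their coding sequences are 495, 480 and 477 bases long. GADD45A and GADD45B were 60.8% identical over the aligned coding bases, GADD45A and GADD45G 62.3%, and GADD45B and GADD45G 66.1%. The stretch around the longest runs that GADD45A shares with the other members lies in exon 3 of each gene and is shown to make plain how far the members can be told apart. Capitals mark the 40 of 60 bases that are the same in all 3 genes, at coding bases 226 to 285 of GADD45A (chr1:67686429-67686488) and GADD45B (chr19:2477108-2477167) and 235 to 294 of GADD45G (chr9:89605746-89605805).
GADD45A: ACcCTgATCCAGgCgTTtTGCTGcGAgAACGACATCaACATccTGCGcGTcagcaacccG
GADD45B: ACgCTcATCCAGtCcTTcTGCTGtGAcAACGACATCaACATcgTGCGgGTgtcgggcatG
GADD45G: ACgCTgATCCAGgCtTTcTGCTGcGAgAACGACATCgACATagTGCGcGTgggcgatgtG
The longest run shared without a mismatch was 18 bases between GADD45A and GADD45G, 15 between GADD45A and GADD45B and 13 between GADD45B and GADD45G, also over the whole mRNAs, all far shorter than the 150-base reads. No other listed gene overlapped a member.

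GADD45A, the member most tied to DNA damage, was the most abundant and was higher in every siBAP18 library. It had 1868, 1654 and 1608 counts in siCtrl replicates 1 to 3 and 6029, 6399 and 4161 counts in siBAP18 replicates 1 to 3. Per gene length and depth these were 16.8, 17.4 and 16.5 RPKM in siCtrl and 54.0, 54.7 and 47.8 RPKM in siBAP18. The siCtrl libraries lay close together, the siBAP18 libraries spread more with replicate 3 lowest, and the groups were far apart. Mean levels were 16.9 ± 0.437 RPKM in siCtrl and 52.1 ± 3.80 RPKM in siBAP18 (SD, n = 3 each). The log2 fold change was 1.62 (SE 0.068), or 3.07-fold, and any siBAP18 library exceeded any siCtrl library by between 2.75-fold and 3.32-fold.

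GADD45B, known for its induction by inflammatory and growth factor signals, was also higher in every siBAP18 library, by a smaller amount. It had 904, 762 and 846 counts in siCtrl and 1356, 1414 and 1070 counts in siBAP18. These were 7.88, 7.74 and 8.40 RPKM in siCtrl and 11.75, 11.7 and 11.89 RPKM in siBAP18. The siBAP18 libraries were nearly identical in RPKM. With the TMM scaling used for the fold change, they were at 24.92, 24.21 and 26.39 CPM (counts scaled to library depth). Their SD on that scale was 1.11 CPM, against 0.869 CPM in siCtrl, so the near identity was seen in RPKM only. Replicate 3, the lowest siBAP18 library for GADD45A, was the highest for GADD45B on both scales. Mean levels were 8.01 ± 0.348 RPKM in siCtrl and 11.8 ± 0.101 RPKM in siBAP18 (SD, n = 3 each). The log2 fold change was 0.55 (SE 0.076), or 1.47-fold.

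GADD45G was close to the detection limit. It had 16, 22 and 12 counts in siCtrl and 32, 22 and 20 counts in siBAP18, which were 0.226, 0.361 and 0.193 RPKM and 0.448, 0.294 and 0.359 RPKM. The groups overlapped, since siCtrl replicate 2 lay above siBAP18 replicates 2 and 3. Mean levels were 0.260 ± 0.0895 RPKM and 0.367 ± 0.0773 RPKM (SD, n = 3 each). The log2 fold change was 0.50 with an SE of 0.37. Without 1 library it ranged from 0.33 (without siBAP18 replicate 1) to 0.78 (without siCtrl replicate 2). Summed counts were 50 in siCtrl (exact Poisson 95% interval 37.1 to 65.9) and 74 in siBAP18 (58.1 to 92.9), intervals that cover counting error only and overlap. All 6 counts were even, and whether both mates of a read pair were counted is not given. If they were, these intervals are too narrow.

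**Figure D1:**
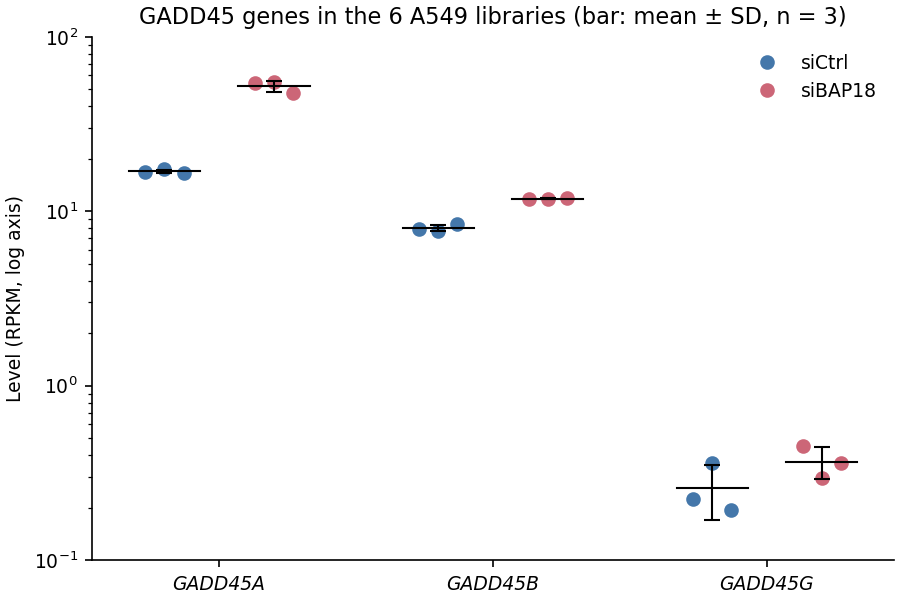
Level of each GADD45 gene (RPKM, log axis) in the 3 siCtrl (blue) and 3 siBAP18 (red) libraries, with points for libraries and bars for the mean ± SD. The groups are apart for GADD45A (16.5 to 17.4 against 47.8 to 54.7 RPKM) and GADD45B (7.74 to 8.40 against 11.7 to 11.89 RPKM) and overlap for GADD45G.

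All 3 siBAP18 libraries therefore lay above all 3 siCtrl libraries for 2 of the 3 genes. Across the 20776 genes tested this held for 27.6%, all 3 lay below in 29% and the groups were apart in either direction in 56.6%. By the edgeR quasi-likelihood F test (Benjamini-Hochberg adjusted p under 0.05) 49.6% of genes were called different, 24.5% higher and 25.1% lower in siBAP18. With an absolute log2 fold change over 1 as well, 8.46% were called, 4.72% higher and 3.74% lower. Since the family was chosen on the same contrast, nothing is read from the members' count. As a description, 417 genes (2.01%) had a larger log2 fold change than GADD45A. For GADD45B these were 2855 genes (13.7%) and for GADD45G 3287 (15.8%). Among the 14222 genes with an average log2 CPM (counts scaled to library depth) of at least 1, 113 (0.795%) exceeded GADD45A. In that pool 1420 genes (9.985%) exceeded GADD45B, and GADD45G lay below its level. These ranks restate the contrast on which the family was chosen and are no separate result. The median log2 fold change of all genes tested was 0.00102.

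**Figure D2:**
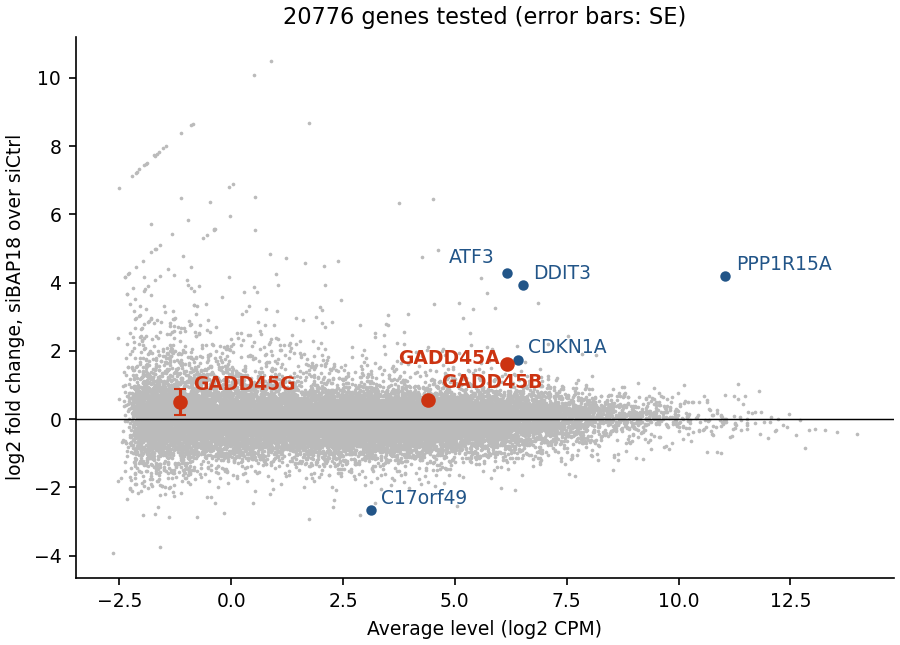
Log2 fold change of siBAP18 over siCtrl against the average level (log2 CPM) for 20776 genes (grey), with the GADD45 genes in red (bars, SE) and 4 related genes and the targeted gene C17orf49 in blue. GADD45A (1.62) stands beside CDKN1A (1.74) and below DDIT3 (3.94), PPP1R15A (4.20) and ATF3 (4.27), while GADD45B and GADD45G lie within the dense band of genes.

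Within each library the order of the levels per length was the same, with GADD45A above GADD45B and GADD45B above GADD45G, and neighbours in that order did not overlap between libraries of a group. GADD45A was exceeded by 12.1% of the genes tested in siCtrl and 4.91% in siBAP18, GADD45B by 22.2% and 16.7%, and GADD45G by 85.9% and 81.9%. The sum of the 3 genes was 25.2 ± 0.275 RPKM in siCtrl and 64.3 ± 3.70 RPKM in siBAP18. The balance within the family was different in the 2 groups. GADD45A made up 67.5%, 68.2% and 65.8% of the summed RPKM in siCtrl replicates 1 to 3 and 81.6%, 82.0% and 79.6% in siBAP18 replicates 1 to 3. GADD45B made up 31.8% ± 1.55 in siCtrl and 18.4% ± 1.25 in siBAP18, and GADD45G 1.03% ± 0.344 and 0.573% ± 0.120. The ratio of GADD45A to GADD45B was 2.14, 2.24 and 1.96 in siCtrl and 4.59, 4.68 and 4.02 in siBAP18, and the groups did not overlap. The shares and the ratio restate the differences of the members given above, on which the family was chosen, and are no separate result. These ratios use the listed gene lengths of 2069, 2138 and 1322 bases, which count the exons of all transcripts, including 2 transcripts with a retained intron in each of GADD45A and GADD45B. With the lengths of the principal mRNAs (1496, 1373 and 1065 bases) the ratio was 1.74 to 1.99 in siCtrl and 3.57 to 4.15 in siBAP18.

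**Figure D3:**
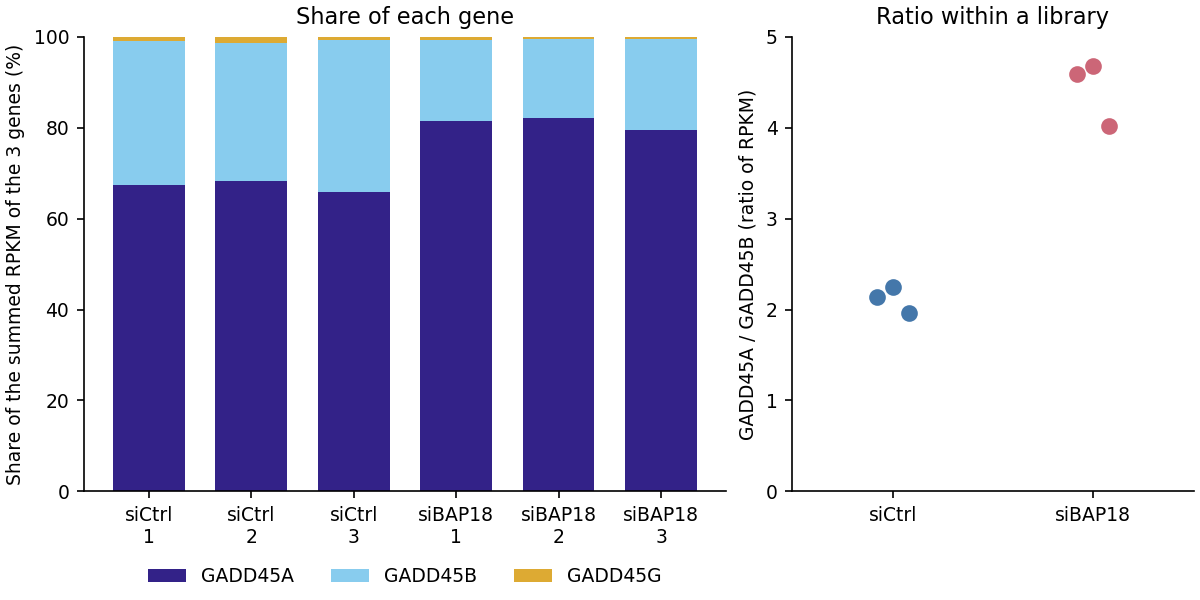
Left, share of each gene in the summed RPKM of the 3 GADD45 genes (percent) in each library. Right, ratio of GADD45A to GADD45B RPKM in each library (points), between 1.96 and 2.24 in siCtrl and between 4.02 and 4.68 in siBAP18.

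The start of the genes could be described for GADD45B and GADD45G from RefSeq (GRCh38.p14), and the GADD45A promoter is not analysed here. The 250 bases before each start are shown, GADD45B at chr19:2475877-2476126 and GADD45G at chr9:89604762-89605011, both on the plus strand, so that the promoters of these members can be compared letter by letter. Capitals mark, from left to right, an E box (CACGTG), the boxes named CCAAT and a TATA box (TATAA).
GADD45B: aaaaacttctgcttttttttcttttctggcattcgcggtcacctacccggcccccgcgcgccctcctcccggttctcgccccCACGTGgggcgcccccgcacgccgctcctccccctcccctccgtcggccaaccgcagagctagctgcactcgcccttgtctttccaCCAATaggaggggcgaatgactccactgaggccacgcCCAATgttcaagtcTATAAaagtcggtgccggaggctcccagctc
GADD45G: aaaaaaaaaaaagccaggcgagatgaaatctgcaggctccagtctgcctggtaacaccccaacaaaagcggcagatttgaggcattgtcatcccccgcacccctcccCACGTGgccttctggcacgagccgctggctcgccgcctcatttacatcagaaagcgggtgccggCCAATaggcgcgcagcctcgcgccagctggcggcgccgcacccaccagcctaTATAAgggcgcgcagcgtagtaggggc
Both windows share the same order of letters. The TATA box began 31 bases before the start in GADD45B and 27 in GADD45G, a CCAAT box 82 and 79 bases before it, and the E box 168 and 143 bases before it. GADD45B had a second CCAAT box 45 bases before the start. Over both strands, TATAA occurred in 18.9% of all 35116 promoters in the table, CCAAT in 32.0% and CACGTG in 6.35%. The letters of an AP-1 site (TGANTCA, in 6.57% of promoters), a cyclic AMP response element (TGACGTCA, 1.65%) and a GC box (GGGCGG, 42.6%) were in neither window.

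Genes next to the members were compared to see whether the difference extended along the chromosome. Of the 12 nearest tested genes, 2 on each side of each member, 6 (against 49.6% of all genes) passed edgeR's quasi-likelihood test at an adjusted p under 0.05, and without siCtrl replicate 2 only 3 did. Values given below for each gene are log2 fold changes of siBAP18 over siCtrl. Beside GADD45A all called neighbours were lower in siBAP18. GNG12, a G protein gamma subunit whose gene ends 13128 bases away, had a log2 fold change of -0.19 (SE 0.072, adjusted p = 0.0344). SERBP1, an mRNA-binding protein, had -0.19 (SE 0.073, adjusted p = 0.034) and SLC35D1, a nucleotide sugar transporter, -0.51 (SE 0.15, adjusted p = 0.00553). GNG12 and SERBP1 lost the call when single libraries were left out or under limma, and SLC35D1 under limma or without siCtrl replicate 2 (adjusted p = 0.0512). GNG12-AS1 was at 0.24 (SE 0.37, adjusted p = 0.613). Beside GADD45B, LMNB2, which encodes lamin B2 and lies 19126 bases away, was lower at -0.32 (SE 0.066, adjusted p = 2.5e-04), as was DIRAS1, a small GTPase, at -0.50 (SE 0.13, adjusted p = 0.00223). DIRAS1 lost the call under limma without the filter on low values (adjusted p = 0.0739). TIMM13 (0.10, adjusted p = 0.372) and GNG7 (0.34, adjusted p = 0.531) did not pass, although TIMM13 did without siBAP18 replicate 2 (0.19, adjusted p = 0.0359). The nearest genes to GADD45G lay further off. LINC01508, a noncoding RNA 694347 bases away, was higher at 1.22 (SE 0.23, adjusted p = 8.85e-05), and SEMA4D (-0.25, adjusted p = 0.0638), RP13-93L13.2 (0.85, adjusted p = 0.17) and SYK (0.23, adjusted p = 0.579) did not pass. SEMA4D did pass without siCtrl replicate 3 (-0.34, adjusted p = 0.0214) and without siBAP18 replicate 3 (-0.29, adjusted p = 0.0254).

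The members were also compared with all other genes by profile, as the root mean square difference of log2 CPM from the siCtrl mean over the 6 libraries, a measure that includes the contrast itself and is given as a description. The genes most like GADD45A were NOCT, an NADP(H) phosphatase with a circadian rhythm (0.0604), the transcript AC104654.1 (0.0632) and OSER1, an oxidative stress responsive gene (0.0746). Their log2 fold changes were 1.63, 2.13 and 1.67. AC104654.1 had few counts, with an average log2 CPM of -1.02 and an SE of 0.37. The measure adds 0.1 CPM before the logarithm, which weighs most on genes at such low levels. GADD45B ranked only 2275 of 20775 genes by likeness to GADD45A and GADD45G 3959. The genes most like GADD45B were PRKRIP1 (0.0231), the nuclear pore and spindle protein RAE1 (0.0253) and ZC3H18, which links the nuclear cap complex to RNA decay (0.0264), with log2 fold changes of 0.58, 0.56 and 0.57. GADD45A ranked 16985 by likeness to GADD45B. For GADD45G, MAGEA2 (0.0942), SLC25A21 (0.107) and RP13-516M14.4 (0.109) were nearest. No member was thus among the 3 nearest genes of another.

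The GADD45 proteins work inside known pathways, and 77 genes of these pathways were counted from lists compiled by hand. Of the 75 with enough counts, 20 were called higher and 24 lower in siBAP18 and 31 were not called at an adjusted p under 0.05 (edgeR's quasi-likelihood test, Benjamini-Hochberg adjustment over all genes tested). That is 58.7% called against 49.6% of all genes, with a median log2 fold change of 0.01 against 0.00102. Differences and medians below are log2 fold changes of siBAP18 over siCtrl. The counts of each list stand beside 24.5% called higher and 25.1% called lower over all genes tested.

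The growth arrest and DNA damage inducible genes outside the family share the name and not the sequence. PPP1R15A, the phosphatase subunit that reverses eIF2alpha phosphorylation, had 218.6 ± 9.99 CPM in siCtrl and 4011 ± 235 CPM in siBAP18. Its log2 fold change was 4.20 (SE 0.079, adjusted p = 1.24e-22). DDIT3, which encodes the stress transcription factor CHOP, had 11.3 ± 0.795 CPM and 173 ± 14.1 CPM, a log2 fold change of 3.94 (SE 0.084, adjusted p = 6.54e-22). Both differences were larger than that of GADD45A on the log2 scale. DDIT4, an inhibitor of mTORC1, was lower at -0.23 (adjusted p = 0.00352), and its relative DDIT4L was lower at -0.96 (adjusted p = 7.98e-04), a call lost under limma without the filter on low values (adjusted p = 0.0885). The genes of this list thus moved in both directions, with 2 of 4 higher and 2 of 4 lower.

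Among 26 transcription regulators known to act on GADD45 genes, 11 were called higher, 5 lower and 10 not, with a median log2 fold change of 0.15. EGR1, an immediate early zinc finger factor, went from 18, 16 and 14 counts in siCtrl to 1580, 1490 and 1025 counts in siBAP18, a log2 fold change of 6.33 (SE 0.14, adjusted p = 9.05e-22). ATF3, a stress factor of the ATF family, was higher by 4.27 (SE 0.085, adjusted p = 2.22e-22) and JUN, the AP-1 subunit, by 3.39 (SE 0.082, adjusted p = 5.93e-21). JUND was higher by 0.89 (SE 0.071, adjusted p = 1.3e-10). BRCA1, which acts on GADD45A with the repressor ZNF350, was lower at -1.57 (SE 0.09, adjusted p = 3.23e-13). ATF4, the effector of the integrated stress response, was higher by 0.78 (SE 0.07, adjusted p = 1.09e-09) and was named after its value was seen.

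In the p38 and JNK cascade below the GADD45 proteins, 2 of 14 genes were called higher, 4 lower and 8 not, a share of 42.9% called and a median of -0.12. MAP2K3, a kinase that activates p38, was higher by 1.06 (SE 0.071, adjusted p = 6.91e-12), whereas MAP2K6, which also activates p38, was lower at -0.88 (SE 0.096, adjusted p = 3.12e-08). MAP2K7, an activator of JNK, was higher by 0.47 (SE 0.084, adjusted p = 5.15e-05), and its substrate MAPK9 was lower at -0.53 (SE 0.085, adjusted p = 1.11e-05). MAPK11, a p38 kinase, was lower at -0.49 (SE 0.14, adjusted p = 0.00378). MAP3K4, the kinase that GADD45 proteins bind directly, was at -0.19 (SE 0.11, adjusted p = 0.152) and was named after its value was seen.

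All 7 genes for cell cycle, replication and other partners passed the test, against 49.6% of all genes tested. Of these 2 were higher and 5 lower, with a median of -0.22. CDKN1A, which encodes p21, was higher by 1.74 (SE 0.073, adjusted p = 7.3e-16), the value nearest to that of GADD45A among the named partners. It had 39.0 ± 0.882 CPM in siCtrl and 130.5 ± 11.2 CPM in siBAP18. CDK1, the kinase GADD45A is known to inhibit, was lower at -1.25 (SE 0.08, adjusted p = 2.83e-12). PCNA was lower at -0.86 (SE 0.066, adjusted p = 6.49e-11) and the mitotic kinase AURKA at -0.36 (SE 0.076, adjusted p = 3.34e-04). GADD45GIP1, a mitochondrial ribosomal protein that binds GADD45G, was higher by 0.83 (SE 0.076, adjusted p = 1.49e-09).

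GADD45A is also known as an adaptor in active DNA demethylation. Of 9 tested genes for demethylation partners 1 was called higher, 4 lower and 4 not, with a median of -0.06. TET1, which oxidizes methylated cytosine, was lower at -1.14 (SE 0.18, adjusted p = 8.66e-06) and TET2 at -0.52 (SE 0.1, adjusted p = 1.3e-04), whereas TET3 was higher by 0.37 (SE 0.094, adjusted p = 0.00202). The glycosylase MBD4 was lower at -0.61 (SE 0.08, adjusted p = 6.67e-07) and the endonuclease subunit ERCC4 at -0.39 (SE 0.13, adjusted p = 0.0167). The calls of ERCC4, TET2 and TET3 were lost under at least 1 limma alternative, and that of ERCC4 also without siCtrl replicate 2 (adjusted p = 0.0975) and without siBAP18 replicate 1 (0.0835) or 3 (0.0671).

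Among nuclear receptors that bind GADD45 proteins, 2 of 6 tested genes were called higher and 4 were not called, with a median of 0.22. PPARG was higher by 0.98 (SE 0.095, adjusted p = 4.59e-09) and RARA by 0.61 (SE 0.095, adjusted p = 6.59e-06). RXRA (0.14, adjusted p = 0.112), NR1I3 (0.31, adjusted p = 0.162) and PPARA (-0.10, adjusted p = 0.554) did not pass, and ESR1 had at most 6 counts. RXRA did pass without siBAP18 replicate 2 (0.20, adjusted p = 0.0171).

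Factors that bind or degrade GADD45 mRNAs, including nonsense-mediated decay, were called lower in 4 of 9 cases and not called in 5, with a median of -0.08. UPF3B was lower at -0.58 (SE 0.069, adjusted p = 1.09e-07), UPF2 at -0.40 (SE 0.067, adjusted p = 2.09e-05) and the kinase SMG1 at -0.35 (SE 0.086, adjusted p = 0.00155). The CPM of SMG1 overlapped between groups, and its call was lost under limma (adjusted p = 0.0651 with pseudocount 1). SMG5 was at 0.15 (SE 0.065, adjusted p = 0.0655) and was called higher under 10 alternatives, among them DESeq2 (adjusted p = 0.0356) and the limma fits (0.0316 to 0.0338).

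**Figure D4:**
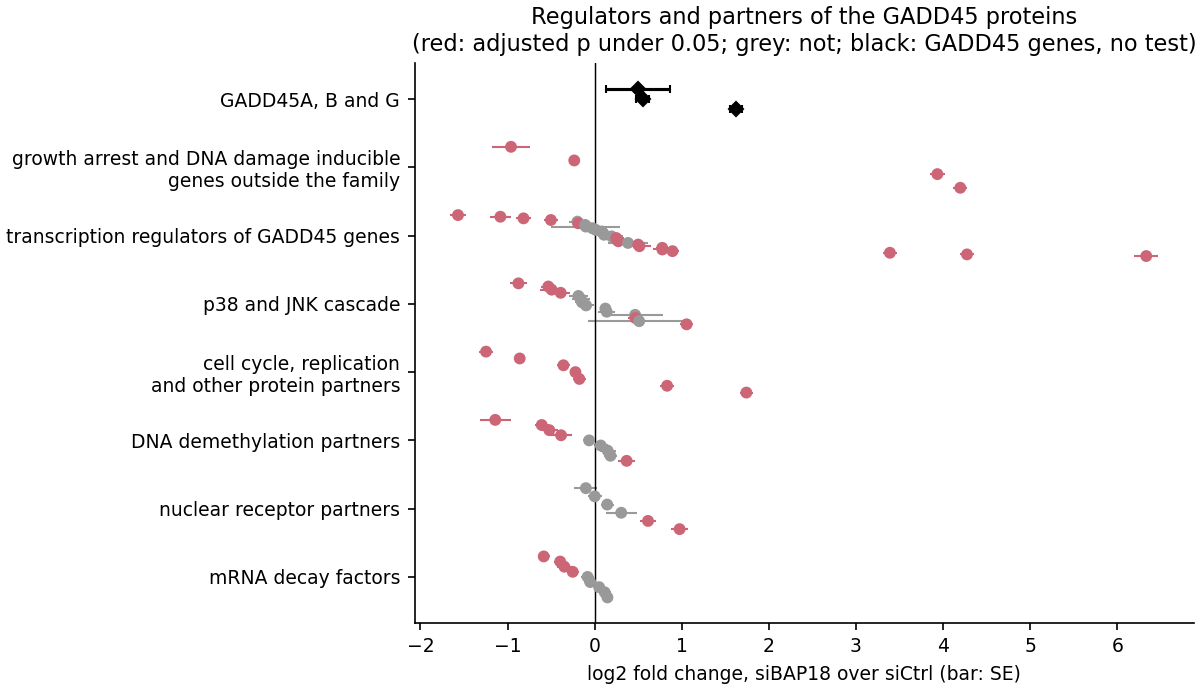
Log2 fold change of siBAP18 over siCtrl (bars, SE) for the GADD45 genes (black, not tested) and 75 genes of 7 pathway lists (red, adjusted p under 0.05 by edgeR; grey, above it). Values over 3 are those of PPP1R15A, DDIT3, EGR1, ATF3 and JUN, and the p38 and JNK cascade, demethylation partners and mRNA decay factors stay near or below 1.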

How the data were processed

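The authors deposited read counts per gene, whole numbers without normalization, and RPKM values for 6 A549 libraries, 3 siCtrl and 3 siBAP18. The deposited RPKM values were recomputed from counts, listed gene lengths and column totals (largest relative difference 1.3e-13). The processing notes name the builds hg38 and GRCm38. The aligner, the counting program, its use of strand and its treatment of read pairs are not given in the sources used here. Libraries were prepared with dUTP. The p-values measure the spread between the replicate libraries of each group, all from 1 line. The study's RNA sequencing methods do not say whether these came from separate cultures.

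Counts passing filterByExpr were scaled by TMM and fitted over all genes with edgeR 4.0.16 (quasi-likelihood F test, Benjamini-Hochberg adjustment, R 4.3.3); calls were made at adjusted p under 0.05. Each SE was derived from the F statistic and the log2 fold change. No sample was dropped, and no pair of replicates was a copy. Chi-square per degree of freedom was 3.95 to 4.565 between siCtrl replicates and 10.05 to 23.3 between siBAP18 replicates, highest for replicates 2 and 3. Alternatives used DESeq2 1.42.0 and limma 3.58.1 on log2(RPKM + 1) or log2(RPKM + 0.1), a filter at a mean RPKM of 0.5, other scalings, a minimum of 10 counts in every library and each library left out. Gene models came from GENCODE 29 and promoters from RefSeq. Tables were made with Python 3.11.15, pandas 2.3.3 and biopython 1.88. The fit was tested on simulated data.

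The members and lists were chosen with earlier results of these data known. Named genes are the 3 members, C17orf49, up to 5 genes per pathway list by smallest adjusted p, the 2 tested neighbours on each side and the 3 nearest profiles, and only counts and medians for a comparison list. Exceptions are stated, and a few items are not reported here.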

Additional observations from a re-analysis of the deposited data

How the results depend on the processing

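Direction was the same for GADD45A and GADD45B under all 17 alternatives (log2 fold change 1.57 to 1.66 and 0.51 to 0.59) and for GADD45G under 15 (0.12 to 0.78). GADD45A was at 1.57 under limma on log2(RPKM + 1), with and without the filter, and GADD45G at 0.12 without the filter. The 1 added to each RPKM shrinks log2 fold changes, most at levels as low as those of GADD45G. Without 1 library the ranges were 1.6 to 1.66 for GADD45A, 0.52 to 0.59 for GADD45B and 0.33 to 0.78 for GADD45G. With principal mRNA lengths, chosen after seeing the data, mean levels were 23.4 and 72.1 RPKM for GADD45A, 12.5 and 18.3 for GADD45B and, in siBAP18, 0.456 for GADD45G.

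Genes higher with a log2 fold change over 1 numbered 605 with at least 10 counts in every library, 215 under limma with pseudocount 1, 475 with 0.1 and 212 without the filter, against 981. Genes lower under -1 numbered 133, 434 and 133 under the limma fits, against 777. Since a pseudocount shrinks log2 fold changes, this threshold is stricter in the limma fits, and these numbers are not directly comparable. With that threshold 7 pathway genes were higher and 4 lower. Of the 12 neighbours 3, 3 and 2 were called under the limma fits, and 3 to 7 without 1 library. Without 1 library TIMM13 ranged from -0.025 (without siBAP18 replicate 3) to 0.19, and GNG7 from -0.017 (without siCtrl replicate 2) to 0.74. The cause was not tested. Counting each single named gene once per alternative, 42 calls were lost, 15 were gained, 2 directions were reversed and 1013 results stayed the same. A gene can thus count more than once.

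Libraries with the same replicate number showed little correlation of residuals (r -0.017, 0.051 and 0.0038), against -0.037 to 0.034 between different numbers. All tested genes weigh alike in these values, so they cannot decide whether the number marks a shared batch. With the number as a block 5307 genes were higher and 5496 lower, against 5089 and 5216, and GADD45A was at 1.62. Not every library correlated best with its own number.

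Low counts were often even (84.1% of counts from 2 to 9, 50.8% of those from 10000), and all counts of GADD45B and GADD45G were. Halved counts, chosen after seeing the data, gave 1.63, 0.56 and 0.50 for GADD45A, GADD45B and GADD45G. GADD45G rests on 12 to 32 counts per library.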

Other observations

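A comparison list holds ATF4 target genes, which respond to a factor known to act on GADD45A. Of its 16 genes, 8 were called higher in siBAP18, 5 lower and 3 not, with a median log2 fold change of 0.33, against 24.5% called higher and 25.1% lower and a median of 0.00102 over all genes tested (edgeR's quasi-likelihood test, Benjamini-Hochberg adjusted p under 0.05). With an absolute log2 fold change over 1, 5 were higher and 1 was lower. The siBAP18 and siCtrl libraries did not overlap for 13 of the 16, and for 56.6% of all genes. PPP1R15A, DDIT3, DDIT4 and ATF3, described above, belong to this list, so its counts are not separate from theirs.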
